A study of Mus musculus with 12 samples.

Results

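A set of 7 genes tied to the self-renewal of blood stem cells, Hlf, Mecom, Meis1, Mllt3, Msi2, Prdm16 and Adgrg1, were followed through 4 groups of sorted cells from mouse embryos. The 7 were chosen by name, from 24138 gene models in each deposited table, and where a symbol had several models the one with the highest value was kept. RNA had been sequenced from the intra-aortic clusters, small groups of cells attached to the inside of the aorta, where blood stem cells first appear. They had been taken from the aorta-gonad-mesonephros (AGM) region of C57BL/6 embryos and sorted for CD31 and CD117 on their surface and for the absence of SSEA-1. CD31 marks endothelial and some blood cells, and CD117, the receptor KIT, marks the cluster cells.

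Every embryo carried a Fucci reporter, a fluorescent protein joined to part of a protein that is destroyed in 1 stretch of the cell cycle. Fucci Red animals gave the G1 cells, sorted by mKO2, and Fucci Green animals gave the cells past G1 (S/G2/M), sorted by mAG, so phase and reporter line cannot be told apart. The 4 groups were E10.5 G1, E10.5 S/G2/M, E11.5 G1 and E11.5 S/G2/M, named for the day of gestation, with 3 samples each and 12 in all. The labels do not say how many embryos went into a sample, or whether the 3 samples came from separate litters. The deposited values are a single FPKM (a fragment count scaled for gene length and for the mapped fragments of the library) per gene and group, so levels carry no SD and sequencing depth cannot be read from them. A gene is said to rise or fall, or to pass, where the authors' deposited table lists a q-value under 0.05, and such a q-value measures at most the spread between these samples, which may be technical.

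The 7 genes act at several layers. HLF is a transcription factor of the PAR bZIP family, and MECOM and PRDM16 are related zinc finger proteins of the PRDM family. MEIS1 is a homeodomain protein that binds DNA together with PBX and HOX proteins. MLLT3 (AF9) reads acylated histones and links them to transcription elongation, and MSI2 binds messenger RNA and alters its translation. ADGRG1 (GPR56) is an adhesion receptor at the cell surface. All 7 are known from adult or fetal blood stem cells, and several are also made by endothelium, mesenchyme or neural tissue.

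In these cells the 7 genes did not share a pattern. Hlf and Adgrg1 stood high in a single group, E11.5 S/G2/M, and lay within a narrow range in the other 3 groups. Mllt3 fell between E10.5 and E11.5 in S/G2/M cells. Meis1, Msi2, Mecom (its kept model) and Prdm16 passed the test in none of the 4 comparisons, and each was lower at E11.5 than at E10.5 in both phases. The deposited tables were scaled separately, and a member's value for a group differed by 0.543% to 6.93% between the tables that hold it.

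The calls can be read against the percent of all genes that the authors tested and called. For phase at E11.5, 0.701% of 12414 tested genes passed, 0.137% higher and 0.564% lower in S/G2/M, while 2 of the 7 members passed, both higher. For age in S/G2/M, 4.07% of 12768 tested genes passed, 2.14% higher and 1.93% lower at E11.5, while 2 members passed as higher and 1 as lower. For phase at E10.5, 0.655% of 12984 tested genes passed, 0.193% higher and 0.462% lower, and 0 members did. For age in G1, 4.45% of 12953 tested genes passed, 3% higher and 1.45% lower, and 0 members did. The authors' deposited tables (Cuffdiff) list an unadjusted p under 0.05 for 1 member by phase at E10.5 (Mecom), 3 by phase at E11.5 (Hlf, Adgrg1 and Msi2), 2 by age in G1 (Meis1 and Mllt3) and 3 by age in S/G2/M.

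The E11.5 S/G2/M samples enter both comparisons in which Hlf and Adgrg1 passed. Whether the phase difference itself changed with age was not tested, since that needs values per sample. On the log2 scale the phase difference of Hlf was 2.36 greater at E11.5 than at E10.5 and that of Adgrg1 was 1.77 greater. For the other 5 members this value ran from -0.49 (Mllt3) to 0.54 (Meis1).

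**Figure D1:**
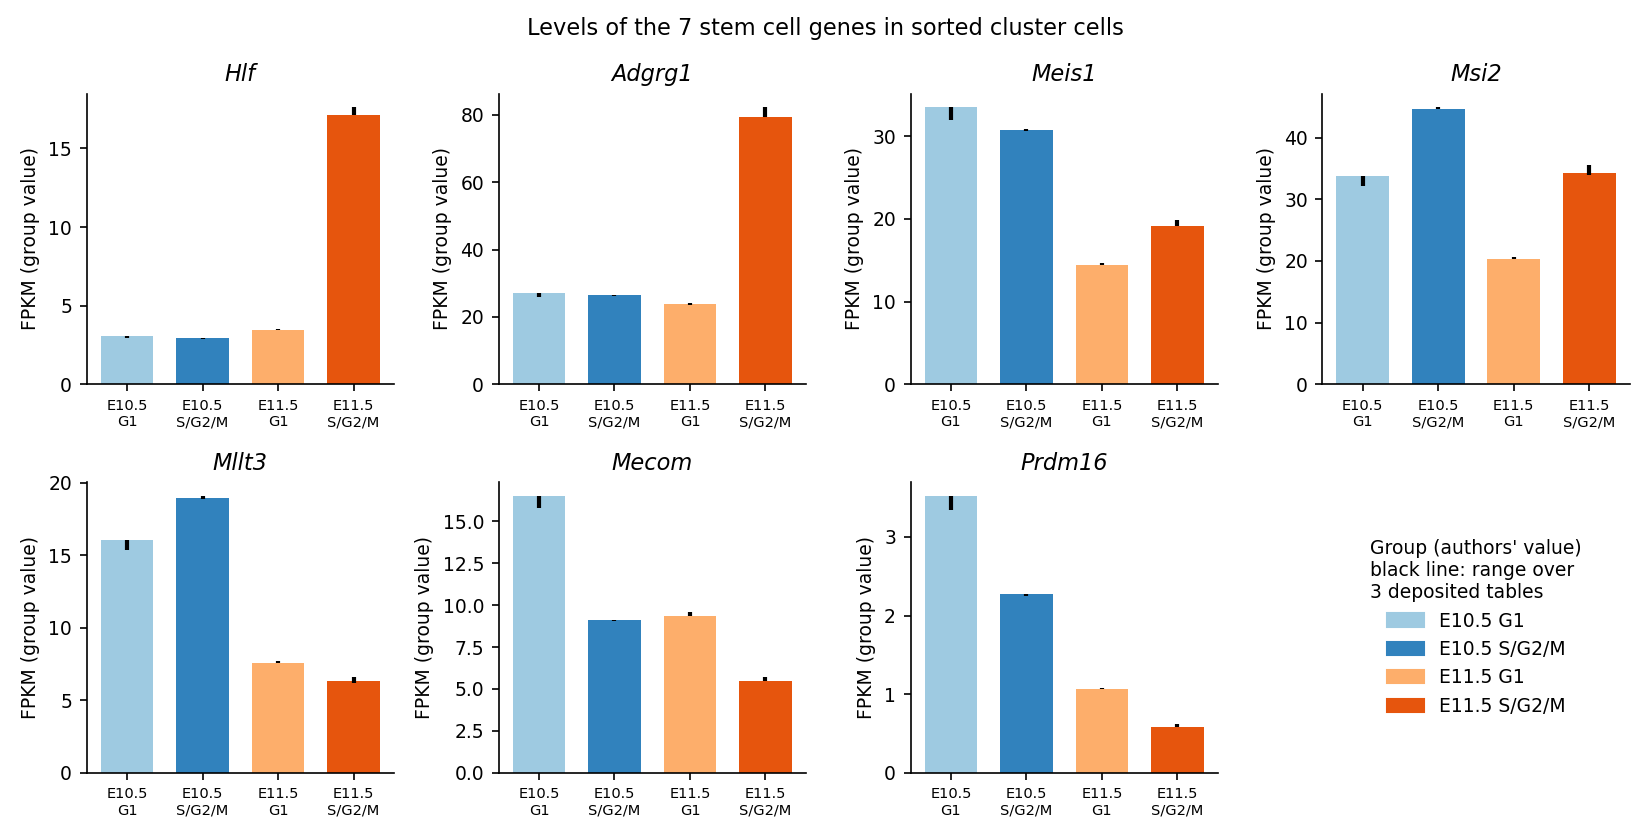
Bars show the authors' FPKM in each of the 4 groups, read from the 2 tables that compare phases, and the black line on each bar spans the values of that group over the 3 deposited tables that hold it. Hlf and Adgrg1 stand apart in E11.5 S/G2/M, at 17.1 and 79.4 FPKM, while Mllt3, Mecom, Meis1, Msi2 and Prdm16 have their highest bar at E10.5.

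Hlf had 3.04 FPKM in E10.5 G1, 2.91 FPKM in E10.5 S/G2/M, 3.47 FPKM in E11.5 G1 and 17.1 FPKM in E11.5 S/G2/M. The last group was high and the other 3 were low and close together. HLF is one of the factors used to mark stem cells among the progenitors of the embryo. The gene lies on the minus strand of chromosome 11 (90336535 to 90390917, mm10). At E11.5 the level rose 4.93-fold from G1 to S/G2/M (log2 fold change 2.30, q = 0.0102, authors' deposited table). Between E10.5 and E11.5 it rose 6.11-fold in S/G2/M cells (log2 2.61, q = 0.00308, authors' deposited table). In G1 cells the 2 ages had 2.92 and 3.51 FPKM in the table that compares them (q = 0.864, authors' deposited table). At E10.5 the phases differed by 1.05-fold (q = 0.995, authors' deposited table). Among tested genes the level of Hlf lay at percentile 24.7 in E11.5 G1 and at percentile 67.7 in E11.5 S/G2/M.

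Adgrg1 had 27.1 FPKM in E10.5 G1, 26.6 FPKM in E10.5 S/G2/M, 23.7 FPKM in E11.5 G1 and 79.4 FPKM in E11.5 S/G2/M. As with Hlf, the last group was high and the other 3 were near each other, but the level was far above that of Hlf in every group. The receptor has been tied to the emergence of blood stem cells from endothelium. The gene lies on the plus strand of chromosome 8 (94977109 to 95014208). It rose 3.34-fold in S/G2/M at E11.5 (log2 1.74) and 3.13-fold with age in S/G2/M cells (log2 1.65), where the authors' deposited tables list q = 0.0102 and q = 0.00308. In G1 cells the 2 ages had 26.0 and 24.1 FPKM (q = 0.929, authors' deposited table), and at E10.5 the phases differed by 1.02-fold. Its level in E11.5 S/G2/M lay at percentile 93.1 of tested genes.

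Mllt3 had 16.1 FPKM in E10.5 G1, 19.0 FPKM in E10.5 S/G2/M, 7.59 FPKM in E11.5 G1 and 6.36 FPKM in E11.5 S/G2/M. Both E10.5 groups were high and both E11.5 groups low. The protein is known to support human blood stem cells in culture. The gene lies on the minus strand of chromosome 4 (87769925 to 88033407). In S/G2/M cells it fell 2.85-fold with age, from 18.9 to 6.64 FPKM (log2 -1.51, q = 0.00308, authors' deposited table). In G1 cells the values were 15.4 and 7.70 FPKM (unadjusted p of 0.0147 and q of 0.164, authors' deposited table). The difference between the phases was 1.18-fold at E10.5 and 1.19-fold at E11.5, in opposite directions, and neither passed.

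**Figure D2:**
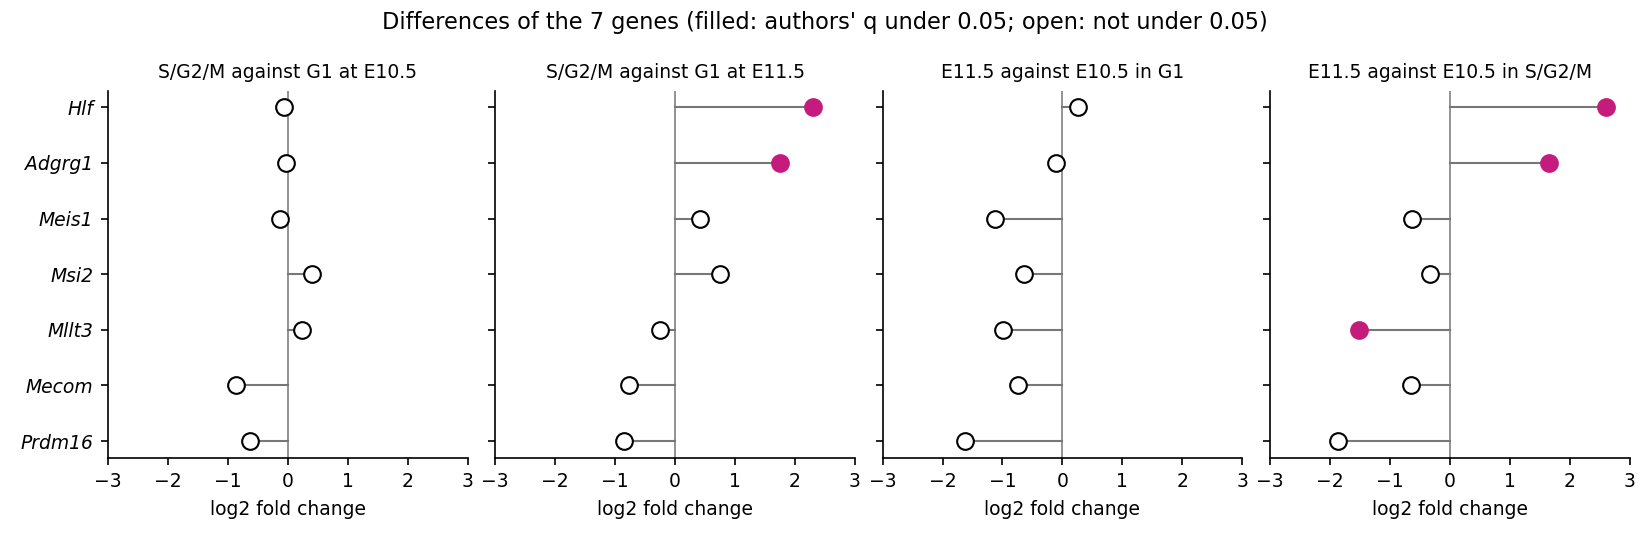
Each panel plots the log2 fold change of the 7 genes in 1 comparison, filled where the authors' deposited table lists a q-value under 0.05. The filled points are Hlf and Adgrg1 at E11.5 by phase, and Hlf, Adgrg1 and Mllt3 by age in S/G2/M.

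Hlf, Adgrg1 and Mllt3 are the members that passed a test, and the bases just before their transcription starts are shown so that the starts can be compared. The deposited models of all 7 members begin at a start listed in RefSeq, and the sequences are the 250 bases upstream of it from RefSeq's GRCm38.p6 (mm10). They are chr11:90390918-90391167 on the minus strand for Hlf, chr8:94976859-94977108 on the plus strand for Adgrg1 and chr4:88033408-88033657 on the minus strand for Mllt3. Capitals mark matches, on either strand, to a set of short motifs.
Hlf: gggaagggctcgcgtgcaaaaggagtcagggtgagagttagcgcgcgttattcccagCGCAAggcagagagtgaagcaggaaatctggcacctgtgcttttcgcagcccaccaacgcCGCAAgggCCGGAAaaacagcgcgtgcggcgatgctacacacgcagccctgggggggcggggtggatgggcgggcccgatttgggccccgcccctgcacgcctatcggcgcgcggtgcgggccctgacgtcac
Adgrg1: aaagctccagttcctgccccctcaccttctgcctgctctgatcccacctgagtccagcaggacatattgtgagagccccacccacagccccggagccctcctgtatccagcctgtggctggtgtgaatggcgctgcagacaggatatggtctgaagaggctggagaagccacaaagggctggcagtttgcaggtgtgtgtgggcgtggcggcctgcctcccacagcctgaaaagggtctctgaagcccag
Mllt3: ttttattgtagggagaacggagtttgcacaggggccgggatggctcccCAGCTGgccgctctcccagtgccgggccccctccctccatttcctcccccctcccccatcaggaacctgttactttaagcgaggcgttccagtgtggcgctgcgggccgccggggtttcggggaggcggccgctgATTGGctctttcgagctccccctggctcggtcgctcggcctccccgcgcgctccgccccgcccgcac

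The motifs were searched on both strands. Of cell cycle elements these were E2F sites, as TTCCCGC and also as TTGGCGC, and the CHR, as TTTGAA. Of factors of blood cells they were RUNX, as TGTGGT, then GATA, as AGATAA and also as TGATAA, ETS, as CCGGAA, MEIS, as TGACAG, and an E-box, as CAGCTG. The remaining ones were the CCAAT box, by its name, and 2 forms taken here as a core of PAR bZIP sites, TTACG and TTGCG. No matches overlap at the members' deposited starts. The Hlf window holds 1 ETS match, at -125 to -120 from the start, and 2 matches to TTGCG, at -193 to -189 and -133 to -129. It holds none to TTACG, and binding by HLF or its family was not tested. The Adgrg1 window at the deposited start holds none of them, and the Mllt3 window holds 1 E-box and 1 CCAAT box. With no match in the Adgrg1 window, Hlf and Adgrg1, which share their pattern of expression, could share none of these motifs there. Over 32851 RefSeq promoters the share with a match in the same window was 12.0% for the ETS letters and 20.7% for either PAR bZIP form. It was 33.8% for the CCAAT box and 13.0% for the E-box. The CCAAT box was found at the start of 5 of the 7 members (Mecom, Meis1, Mllt3, Msi2 and Prdm16). No member had an E2F, CHR or GATA match at its deposited start, and these occur in 5.62%, 16.0% and 16.6% of promoters. At other RefSeq starts, Adgrg1 has 1 CHR match (-205 to -200 from 94984399) and Mecom has 1 GATA match (-31 to -26 from 30509759). Such matches describe letters only, and the window is GC-rich at the start of Hlf (67.2% G or C), Mllt3 (69.2%) and Adgrg1 (60.8%), against a median of 52.4% over all promoters.

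Meis1 had 33.5 FPKM in E10.5 G1, 30.7 FPKM in E10.5 S/G2/M, 14.4 FPKM in E11.5 G1 and 19.1 FPKM in E11.5 S/G2/M. Both E11.5 groups were below both E10.5 groups. The gene lies on the minus strand of chromosome 11 (18880428 to 19018969), and 896 bases of its exons are shared with exons of the antisense gene Gm16140 in GENCODE (and 1029 with Gm37818 on its own strand), so reads there may belong to either gene. With age its level in G1 was 2.19-fold lower (31.9 and 14.6 FPKM, log2 -1.13, unadjusted p of 0.0081 and q of 0.115, authors' deposited table). In S/G2/M it was 1.54-fold lower (q = 0.434, authors' deposited table). The phases differed by 1.09-fold at E10.5 and 1.33-fold at E11.5 without passing.

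Msi2 was, with Meis1, the most abundant member at E10.5, at 33.7 FPKM (G1) and 44.7 FPKM (S/G2/M). At E11.5 it had 20.4 FPKM (G1) and 34.3 FPKM (S/G2/M). S/G2/M cells had the higher value at both ages. The gene spans chromosome 11 from 88339382 to 88718267 on the minus strand. The phase difference at E11.5 was 1.69-fold (log2 0.75, unadjusted p of 0.0401 and q of 0.563, authors' deposited table), and at E10.5 it was 1.33-fold (q = 0.918, authors' deposited table). With age the level was 1.56-fold lower in G1 and 1.26-fold lower in S/G2/M, and neither passed.

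Mecom had 16.5 FPKM in E10.5 G1, 9.11 FPKM in E10.5 S/G2/M, 9.35 FPKM in E11.5 G1 and 5.48 FPKM in E11.5 S/G2/M. The kept model had its higher value in G1 at both ages, 1.81-fold at E10.5 and 1.70-fold at E11.5 (log2 -0.86 and -0.77). The authors' deposited tables list q = 0.599 at E10.5, where the unadjusted p was 0.0238, and q = 0.756 at E11.5. With age the level was 1.67-fold lower in G1 and 1.57-fold lower in S/G2/M, where the authors' deposited tables list q = 0.446 and q = 0.565. At E10.5, 8 of 20 neural markers fell in S/G2/M, and their part in the values of Mecom was not tested.

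The tables hold 2 gene models named Mecom, both inside the single reference gene on the minus strand of chromosome 3. The kept model runs from 29951296 to 30013204 and starts at the inner promoter, from which the short form EVI1 is made. The other, from 30236569 to 30509487, covers the upstream part that belongs to the longer form MDS1-EVI1. The upstream model had 0.929 FPKM in E10.5 G1, 3.82 FPKM in E10.5 S/G2/M, 4.77 FPKM in E11.5 G1 and 1.43 FPKM in E11.5 S/G2/M. Its order of groups differed from that of the kept model, with E10.5 G1 lowest in place of highest. None of its 4 comparisons passed, with unadjusted p-values from 0.112 to 0.276 in the authors' deposited tables, although its folds were larger than those of the kept model (log2 2.04 by phase at E10.5, -1.73 by phase at E11.5, 2.43 by age in G1 and -1.34 by age in S/G2/M). By age in G1 it was thus higher at E11.5, where the kept model was lower. The antisense gene Mecomos overlaps the span of the kept model, and its exons share 81 bases with Mecom exons in GENCODE.

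Prdm16, the relative of Mecom, was the least abundant member except in E10.5 G1, where Hlf was lower, with 3.52 FPKM in E10.5 G1, 2.28 FPKM in E10.5 S/G2/M, 1.06 FPKM in E11.5 G1 and 0.587 FPKM in E11.5 S/G2/M. The value was lower at E11.5 in both phases and lower in S/G2/M at both ages. The gene lies on the minus strand of chromosome 4 (154316125 to 154636873). The age difference was 3.10-fold in G1 and 3.65-fold in S/G2/M (log2 -1.63 and -1.87) and did not pass (authors' deposited tables, q = 0.566 and q = 0.405). With a pseudocount of 1 these log2 values became -1.06 and -1.01. At E11.5 its level lay at percentile 4.24 of tested genes in S/G2/M. Prdm16 shares 109 exon bases with B230104I21Rik on the opposite strand.

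Over the 7 members the median log2 fold change by age was -0.74 in G1 cells and -0.62 in S/G2/M cells, against 0.02 and 0.03 over all tested genes above 0 in both groups. Lower values at E11.5 were found for 6 of 7 members in G1 and 5 of 7 in S/G2/M, against 49.1% and 47.8% of all such genes. Both comparisons rest on separate samples. By phase the medians were -0.06 at E10.5 and 0.41 at E11.5, against -0.04 and -0.06 over all such genes. These are descriptions of 7 named genes and not tests.

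**Figure D3:**
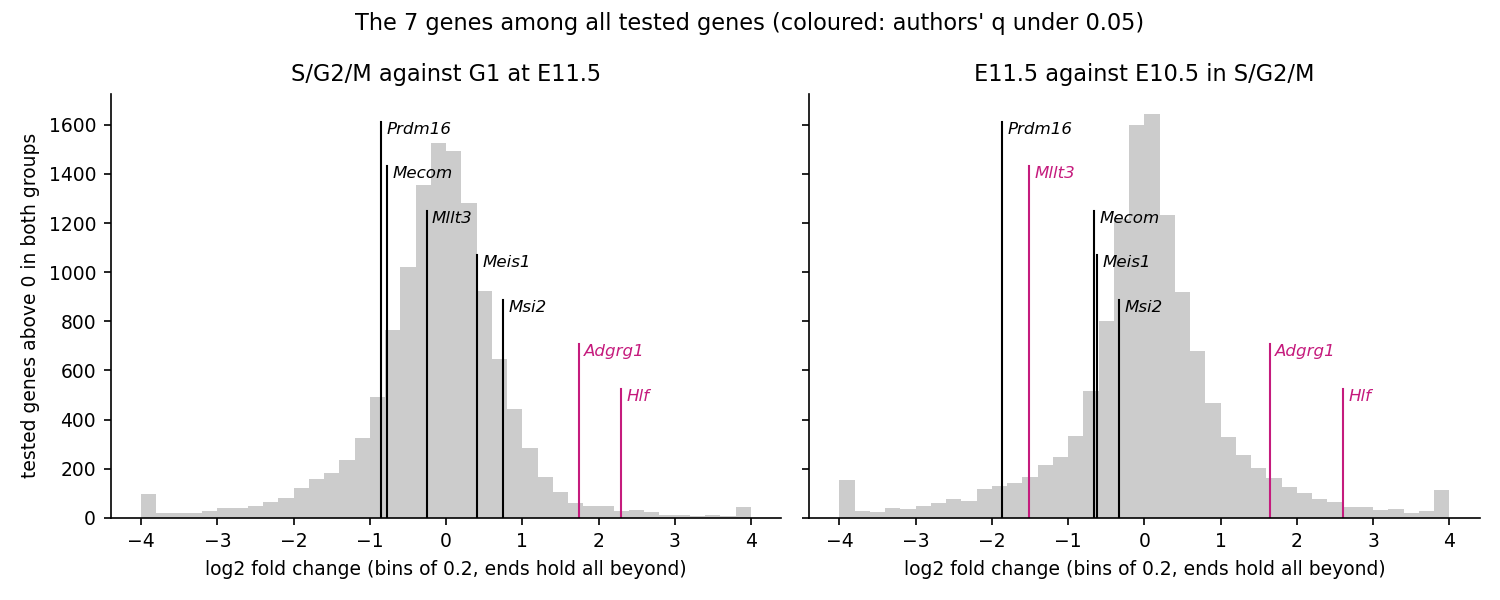
Grey bars count tested genes above 0 in both groups by log2 fold change, in bins of 0.2, and the vertical lines mark the 7 members. In the E11.5 phase comparison Hlf (2.30) and Adgrg1 (1.74) lie in the right tail, and in the age comparison of S/G2/M cells Mllt3 (-1.51) and Prdm16 (-1.87) lie on the left with Prdm16 not passing.

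Markers of other cell types differed between the same groups. Over 20 macrophage markers, the summed level was 671 FPKM in E10.5 G1, 444 FPKM in E10.5 S/G2/M, 4100 FPKM in E11.5 G1 and 1673 FPKM in E11.5 S/G2/M. In the E11.5 phase comparison, where Hlf and Adgrg1 rose, 7 of 20 macrophage markers fell in S/G2/M, and all 20 were lower (median log2 -1.61). Over 20 neural markers the sum was 815 FPKM in E10.5 G1 and 171 to 290.2 FPKM in the other 3 groups, and over 20 mesenchymal markers it was 494 to 527 FPKM at E10.5 and 179 to 205 FPKM at E11.5. In the age comparison of S/G2/M cells, where Mllt3 fell, 7 of 20 mesenchymal markers fell and all 20 were lower (median log2 -1.42). Of 13 erythroid markers in that comparison, 3 fell, 12 were lower and 1 was higher (median log2 -2.38). Endothelial markers summed to 649 to 866 FPKM at E10.5 and 1118 to 1418 FPKM at E11.5. Erythroid markers (13 found of 15) summed to 3122 FPKM in E11.5 S/G2/M against 12241 to 19605 FPKM elsewhere. Globin genes made up most of the erythroid sums. The median of the erythroid list was 2.60 FPKM in E11.5 S/G2/M and 4.21 to 11.2 FPKM elsewhere. No marker of these 5 lists was at 0 in any group. In bulk RNA, fewer cells of a type and less RNA per cell cannot be told apart, and the part of these shifts in the members' values was not tested. Between E10.5 and E11.5 in S/G2/M cells, where Hlf and Adgrg1 rose, 11 of 19 tested macrophage markers and 4 of 20 endothelial markers rose as well.

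The sort genes were present in every group. Kit, which encodes CD117, had 15.1 and 12.7 FPKM in G1 and S/G2/M at E10.5 and 16.9 and 28.9 FPKM at E11.5. Pecam1, which encodes CD31, had 39.8 and 30.2 FPKM at E10.5 and 111 and 69.9 FPKM at E11.5. With age, Kit rose in S/G2/M cells, as Hlf and Adgrg1 did, and Pecam1 rose in both phases. Neither sort gene passed by phase. All 20 listed genes of G2 and mitosis were higher in S/G2/M at both ages, and 6 of them passed at E10.5 and 3 at E11.5. Their median log2 fold change was 1.09 at E10.5 and 1.04 at E11.5. The G1 groups held these transcripts too, with sums in G1 and S/G2/M of 842 and 1856 FPKM at E10.5 and 1007 and 2112 FPKM at E11.5. Megakaryocyte markers (15 genes) summed to 284 to 314 FPKM at E10.5, 433 FPKM in E11.5 G1 and 583 FPKM in E11.5 S/G2/M. Granulocyte markers (12 genes, 4 to 9 of them at 0 per group) had sums at E10.5 of 22.3 (G1) and 63.7 FPKM (S/G2/M). At E11.5 their sums were 144 (G1) and 407 FPKM (S/G2/M), and Mpo alone gave 341 FPKM of the last sum. The list median was lower in the last group (0.295 FPKM) than in G1 cells of that age (1.45 FPKM). By phase at E11.5, Mpo passed as higher and S100a8 as lower, from 13.1 FPKM to 0.

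**Figure D4:**
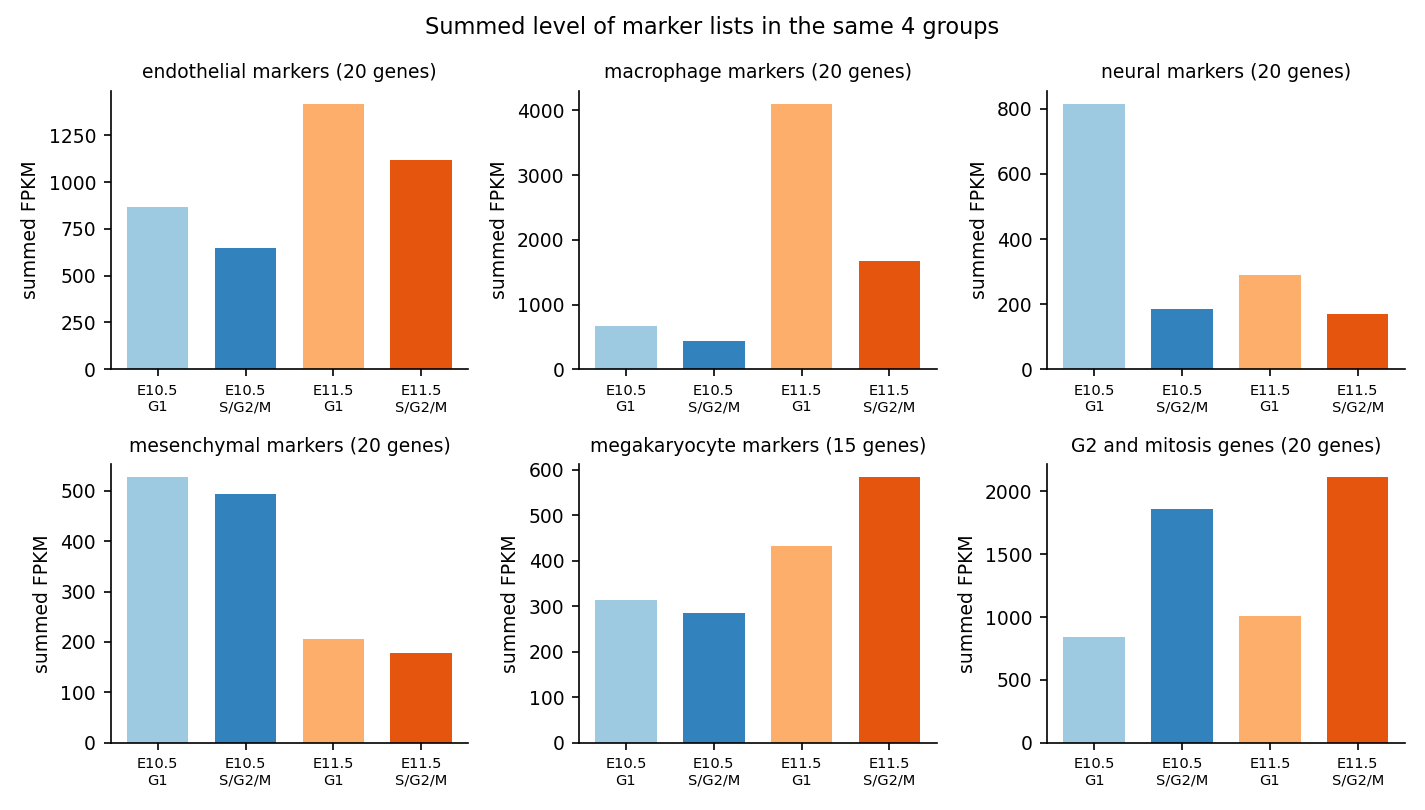
Bars give the summed FPKM of each marker list in the 4 groups, from the 2 tables that compare phases. The macrophage sum is highest in E11.5 G1 (4100 FPKM), the neural sum in E10.5 G1 (815 FPKM), and the G2 and mitosis sum is higher in S/G2/M at both ages.

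Other regulators of stem and progenitor cells were read from a list of 41 genes. For phase at E11.5, 2 of 41 tested genes rose and none fell. Among them was the DNA methyltransferase Dnmt3b, which went from 14.6 to 61.4 FPKM. For age in S/G2/M, 10 of 41 rose and 2 fell, with a list median of 0.80. Among those that rose were Ikzf1 (13.9 and 69.9 FPKM), Myb (7.62 and 31.9 FPKM) and Runx1 (10.1 and 40.9 FPKM), all regulators of blood development, and the 2 that fell were Zbtb16 (4.62 and 0.945 FPKM) and Hoxa10 (16.9 and 3.76 FPKM). For age in G1, 4 of 40 tested genes rose (Ptprc, Ikzf1, Runx1 and Fli1) and Cdkn1c fell, with a median of 0.40, and at E10.5 by phase Cdkn1c alone passed, falling in S/G2/M from 352 to 158 FPKM (median 0.06). By age the median of this list lay above that of all tested genes (0.02 and 0.03), and the median of the 7 members lay below it.

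Most partners and relatives of MEIS1 were lower at E11.5, as Meis1 was. Of 10 TALE homeodomain genes, 2 fell in G1 cells and 3 in S/G2/M cells, none rose, and 9 of 10 were lower in each (medians -1.22 and -0.45). Meis2, the closest relative, fell 3.25-fold in G1 and 3.95-fold in S/G2/M, to 9.65 FPKM. Pknox2 fell in S/G2/M from 9.21 to 1.45 FPKM. Pbx2 had 37.0 and 36.5 FPKM in G1. By phase 0 of the 10 passed at either age (authors' Cuffdiff test, 1 unadjusted p under 0.05 at E10.5 and 0 at E11.5), with medians of -0.09 and 0.0050. Mesenchymal markers fell with age beside these genes, 6 of 20 in G1 and 7 of 20 in S/G2/M, and their part in the TALE values was not tested.

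The Musashi list of 6 genes held 1 that fell with age in each phase, Msi1, the paralog of Msi2. Msi1 fell 6.90-fold in G1, from 96.6 to 14.0 FPKM, and 6.07-fold in S/G2/M, from 88.1 to 14.5 FPKM. Its level was thus above that of Msi2 at E10.5 (101 against 33.7 FPKM in G1) and below it at E11.5 (13.8 against 20.4 FPKM), both per length in the tables of phase. Syncrip, an RNA-binding partner of MSI2, had 88.6 and 64.8 FPKM by age in G1. Hmga2, a chromatin protein of fetal stem cells, had 223 FPKM in E10.5 G1, 296 FPKM in E10.5 S/G2/M, 137 FPKM in E11.5 G1 and 189 FPKM in E11.5 S/G2/M. Neither passed. The list medians by age were -0.53 (G1) and -0.28 (S/G2/M), and by phase 0 genes of the list passed (medians -0.19 and 0.15, authors' Cuffdiff test, 0 unadjusted p under 0.05 at E10.5 and 1 at E11.5). Of the neural markers, a cell type known for Msi1, 4 of 20 fell with age in G1 and 0 of 19 tested in S/G2/M.

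Among 18 genes of the elongation and DOT1L complexes to which MLLT3 belongs, Aff3 fell with age in G1, from 13.1 to 2.28 FPKM, and no other member passed in any comparison. Aff3 in S/G2/M had 9.98 and 4.00 FPKM (q = 0.0692, authors' deposited table). The list medians by age were 0.10 (G1) and 0.12 (S/G2/M), and 0.11 and 0.00051 by phase. Ccnt1, the cyclin of the elongation kinase, had 41.9 and 41.6 FPKM by age in G1, and Men1, a partner of KMT2A, had 22.2 and 17.2 FPKM. Mllt3 itself fell in S/G2/M cells, where 0 of the 18 passed (authors' Cuffdiff test, 1 unadjusted p under 0.05, Aff3).

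Among 15 adhesion receptors and ligands of ADGRG1, 0 passed by phase at either age, with medians of -0.39 at E10.5 and -0.39 at E11.5. The authors' Cuffdiff test gave an unadjusted p under 0.05 for 4 of 12 tested at E10.5 and 1 of 13 at E11.5. By age in S/G2/M, Adgrl4, an endothelial receptor, rose from 11.3 to 52.0 FPKM and Adgrg3 rose from 5.81 to 23.1 FPKM. Adgrg3 lies in the same family as Adgrg1 and had 13.0 FPKM in E11.5 G1 against 22.3 FPKM in E11.5 S/G2/M (q = 0.686, authors' deposited table). The collagen gene Col3a1, which encodes a known ligand of ADGRG1, fell in S/G2/M from 23.5 to 10.1 FPKM and in G1 from 25.4 to 7.71 FPKM. Adgrf5 rose in G1 from 12.0 to 31.4 FPKM. The medians by age were 0.23 (G1) and 0.0071 (S/G2/M).

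The lists closest to Hlf, Mecom and Prdm16 held no gene that passed in any comparison. Of the PAR bZIP relatives of Hlf, Nfil3, a repressor that binds the same DNA sites, had 6.88 and 9.68 FPKM by phase at E11.5, and Tef had 0.722 and 0.860 FPKM and was not tested there. Dbp was at most 0.318 FPKM in every table and never tested. Of 13 PRDM relatives, 9 to 11 were tested per comparison, with medians from -0.66 to -0.12, and Prdm2 had 18.0 and 16.4 FPKM and Prdm4 9.70 and 12.3 FPKM by phase at E11.5. Unadjusted p-values under 0.05 were listed in the authors' deposited tables for none of these 2 lists by phase, for Prdm1 by age in both phases and for Prdm8 by age in S/G2/M. All 10 corepressor genes that partner MECOM and PRDM16 were tested, with medians from -0.15 to 0.14, and 1 of the 10 had an unadjusted p under 0.05 in each comparison but phase at E10.5, where none had (authors' deposited tables). The histone deacetylase Hdac2 had 150.3 and 85.0 FPKM by age in G1, and Hdac1 had 108 and 99.5 FPKM.

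The genes whose level over the 4 groups was most like that of each member were sought among 9641 models of at least 5 FPKM in 1 or more groups, by the distance between log2(FPKM + 1) profiles centred on their means. For Hlf, Cox7a1 (distance 0.32) and Bnip1 (0.34) were among the 3 nearest, and with a pseudocount of 0.1 both were replaced, by Stat4 and Car9. Cox7a1 passed that minimum only in E11.5 S/G2/M, with 10.6 FPKM, and had 1.04 to 1.97 FPKM in the other groups. Stat4 (7.50 FPKM) and Car9 (5.71 FPKM) also passed it only in E11.5 S/G2/M. The likeness of Cox7a1, Stat4 and Car9 to Hlf thus follows in part from the minimum itself. For Adgrg1 they were B9d2 (0.19), Bnip1 (0.21) and Mnd1 (0.27), so Bnip1 was near both genes that rose. For Mllt3 they were Prom1 (0.06), which encodes the surface protein CD133, Arvcf (0.08) and Sh3rf1 (0.11). Prom1 had 18.7 and 22.0 FPKM in G1 and S/G2/M at E10.5 and 9.43 and 7.63 FPKM at E11.5. For Mecom they were Afap1, Mlst8 and Fmn2, for Meis1 Nsdhl, Srfbp1 and Cmtm4, for Msi2 H1f0, Haus6 and Hspe1, and for Prdm16 Magee1, Marveld1 and 3300002I08Rik, all at distances of 0.05 to 0.10. With a pseudocount of 0.1, 0 of 3 nearest genes were shared for Prdm16, 1 of 3 for Hlf, Mecom and Mllt3, and 2 of 3 for Meis1, Msi2 and Adgrg1. The distances of Hlf and Adgrg1 from their nearest genes were larger than those of the other 5 members. With only 4 group values, and libraries shared by all genes, such likeness is a description.

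**Figure D5:**
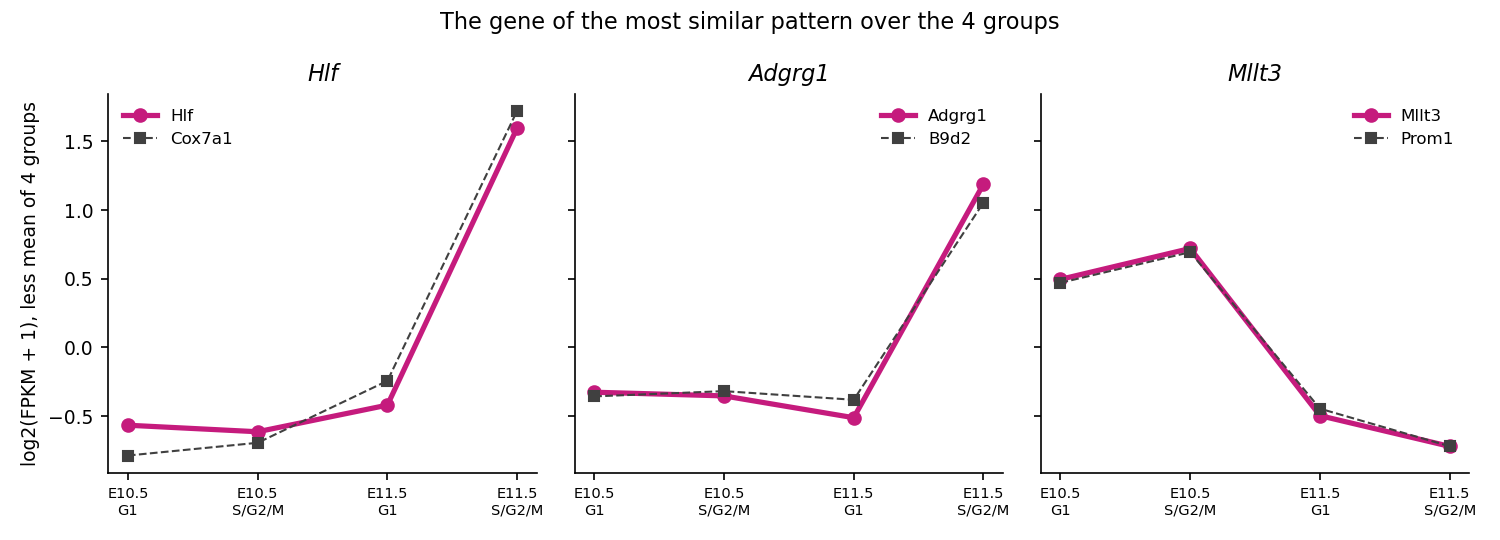
Lines join the log2(FPKM + 1) of a gene in the 4 groups, less its mean, for Hlf, Adgrg1 and Mllt3 and the gene nearest to each (Cox7a1, B9d2 and Prom1). The Hlf and Adgrg1 panels show a single high group, E11.5 S/G2/M, and the Mllt3 panel shows a step down between the ages.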

How the data were processed

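RNA of 12 samples was sequenced by the authors, and 6 gene tables were deposited. Per the file headers, each holds 1 FPKM value for each of 2 groups and a p-value and q-value from the authors' test. The submitters' processing notes name TopHat, Cuffdiff, CASAVA 1.4 and mm10, while the labels' protocols name bowtie 0.12.2 and mm8. Strand use was not given in the sources used here. Columns of S/G2/M cells are headed G2 in the tables and were read as S/G2/M. Deposited starts were taken as counting from 0 and are printed counting from 1. Of 24138 models per table, 12414 to 12984 were tested by the authors in the 4 comparisons, and a Benjamini-Hochberg adjustment over those returned the deposited q-values.

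Fold changes are ratios of the deposited FPKM without a pseudocount. Each comparison was read from its own table, and levels over 4 groups from the 2 tables of phase, which were scaled separately; a member's value for 1 group varied by 0.543% to 6.93% between tables. Members, motifs and gene lists were chosen with earlier results of these data known. All members are printed with every group value; listed genes are printed where they passed (at most 6 per list and comparison, not all of them here) and otherwise the 2 most abundant, and similar genes are named among the 3 nearest to each member. Some of the genes this rule selects are not reported here. Pbx2, Aff3 in S/G2/M, Adgrg3 at E11.5, Prdm1, Prdm8, Dbp, Kit and Pecam1 were added after their values were seen. Of 252 listed genes, 250 were found. Calculations were tested on simulated data. The software was matplotlib 3.10.9, pandas 2.3.3, numpy 2.4.6 and Python 3.11.15.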

Additional observations from a re-analysis of the deposited data

How the results depend on the processing

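Counts of called members were computed under 7 alternatives: a q-value under 0.01 or 0.085, a log2 fold change of at least 1, at least 1 or 5 FPKM, genes above 0 in both groups, and the authors' tables in the other order. Of these counts, 25 stayed within 1.5 times the value given. Where 0 members had passed, a q-value under 0.01 or a log2 fold change of at least 1 could only return 0 again. In the remaining count, with a q-value under 0.01, the members called by phase at E11.5 went from 2 to 0, since the smallest q-value in the authors' deposited table is 0.0102 there. Of the recomputed fold changes of members, 96 kept their direction. The 28 of these with a pseudocount of 1 could not reverse, since adding 1 to both values keeps their order. The authors' q-values were read again only for the tables in the other order. The 2 fold changes that reversed belong to Adgrg1 by phase at E10.5. Its log2 fold change of -0.03 became 0.0077 after subtracting the median of all genes and 0.015 from the other tables. A pseudocount of 1 moved log2 fold changes by up to 0.86, the most for Prdm16 by age in S/G2/M. No paired analysis was possible because the tables hold no values per sample, and for the same reason leaving out each replicate in turn was not run. The depth is unknown, so a level near 0.6 FPKM, as for Prdm16, has no stated precision.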
